A study of Mus musculus with 9 samples.

Results

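The collagen genes of the kidney were compared between young and aged mice. A gene counted as a collagen when its symbol was made of Col, a number, the letter a and a number, and when a probe set carried that symbol and no other. The rule used names and no measured difference. It gave 44 of the 19938 genes measured, and these were all 44 symbols of that form in the RefSeq gene table of mouse build GRCm38.p6. For the 2 collagens with more than 1 probe set, Col6a5 and Col6a6, the probe set with the highest mean over the 9 arrays stood for the gene. Fibrillar collagens (11 genes) and the type IV collagens of basement membranes (6 genes) were set apart, and the other 27 genes were grouped as type VI collagens, fibril-associated collagens, short-chain collagens, transmembrane collagens, collagens of the basement membrane zone and others.

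Both groups were female wild type mice on a mixed FVB/C57BL6 background that differed in age. Whole kidneys were taken at 14 weeks from 4 animals and at 96 weeks from 5, and each animal had its own Affymetrix Mouse Gene ST array. The mice had been perfused with phosphate buffered saline and the kidneys snap frozen. The methods speak of 5 animals per age, whereas 4 arrays carry the younger age, and all 9 arrays were used. All values are log2 expression per probe set after background correction and quantile normalization by the authors, and a difference of 1 on this scale is a 2-fold change. A difference is given as 96 minus 14 weeks, with its standard error (SE) or 95% confidence interval. Adjusted p-values are those of limma after Benjamini-Hochberg correction across the whole set of 19938 genes, and exact p-values come from two-sided permutation of the ages over the 9 arrays for 1 gene at a time. A gene is said to have risen or fallen only where its adjusted p was under 0.05. Scan dates and signal over background are not given in the sources at hand, so a dim collagen cannot be told from an absent one. Precision is limited by the number of animals.

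Collagens are proteins of the extracellular matrix in which 3 chains wind into a triple helix. Fibrillar collagens such as types I and III form the tensile fibres of connective tissue and of scars and are made mainly by fibroblasts and related stromal cells. Type IV collagen forms the sheet-like network of basement membranes, and in the kidney the glomerular filter holds a network of the chains encoded by Col4a3, Col4a4 and Col4a5 made by podocytes, while Col4a1 and Col4a2 encode the chains found in basement membranes of nearly every tissue. Chains are hydroxylated and folded in the endoplasmic reticulum, trimmed by proteinases outside the cell, crosslinked, and later broken down by matrix metalloproteinases.

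The arrays held the pattern of kidney tissue. Markers of kidney tubule (11 of 11 measured) had a summed level of 14.96 to 14.99 at 14 weeks and 14.82 to 15.13 at 96 weeks, and 0 of them passed in either direction. All pairs of arrays correlated at 0.982 or more, and no pair held the same values. Over all genes 860 passed with higher and 479 with lower values at 96 weeks (64.2% of calls higher). After a repeated quantile normalization these counts were 484 and 505 (48.9% higher).

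No collagen passed as higher at 96 weeks, and those that passed as lower differed by a small margin. Of 44 collagens, 0 rose at 96 weeks against a background of 4.31% of all genes. Col6a6 and Col9a3, 2 of the 44, fell, against a background of 2.4%. Whether these counts differ from the shares over all genes was not tested, and a collagen that did not pass is not shown to be unchanged. The methods' t-test with the same adjustment gave 0 higher and 1 lower. At least 1.5-fold with an unadjusted p under 0.05, the thresholds of the methods, was reached by 0 collagens in either direction, where 1.28% of all genes were higher and 0.321% lower by that rule. All 44 differences lay between -0.42, for Col6a6, and 0.39, for Col5a2. At an unadjusted p under 0.05, 4 collagens were higher (background 13.3%) and 16 were lower (36.4% of collagens, background 15.3%). Groups of arrays did not overlap for 9 collagens: every old value exceeded every young one for Col12a1 and Col18a1 (background 7.49%) and was under every young one for Col11a1, Col17a1, Col23a1, Col24a1, Col6a6, Col7a1 and Col9a3 (background 5.79%). Since these are whole kidneys, fewer cells of a type and less RNA per cell cannot be told apart.

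The differences were small, and most had the same sign. They were below 0 for 39 of 44 collagens (88.6%), with a median of -0.10, while 56.6% of all genes were below 0, with a median of -0.03. Brightness moved with the difference over all genes: the median was -0.07 in the first decile of mean level, -0.11 in the third, 0.00 in the sixth and 0.07 in the eighth. Of the collagens, 10 lay in the fifth decile and 19 in the sixth. Among the 10986 genes with a mean level within the range of the collagens, 57.7% were below 0 and the median was -0.03. With cyclic loess between arrays, which brought the decile medians to between -0.021 and 0.017, 38 collagens were below 0, with a median of -0.09. No p is given for such a count, because the genes are not independent of each other.

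**Figure D1:**
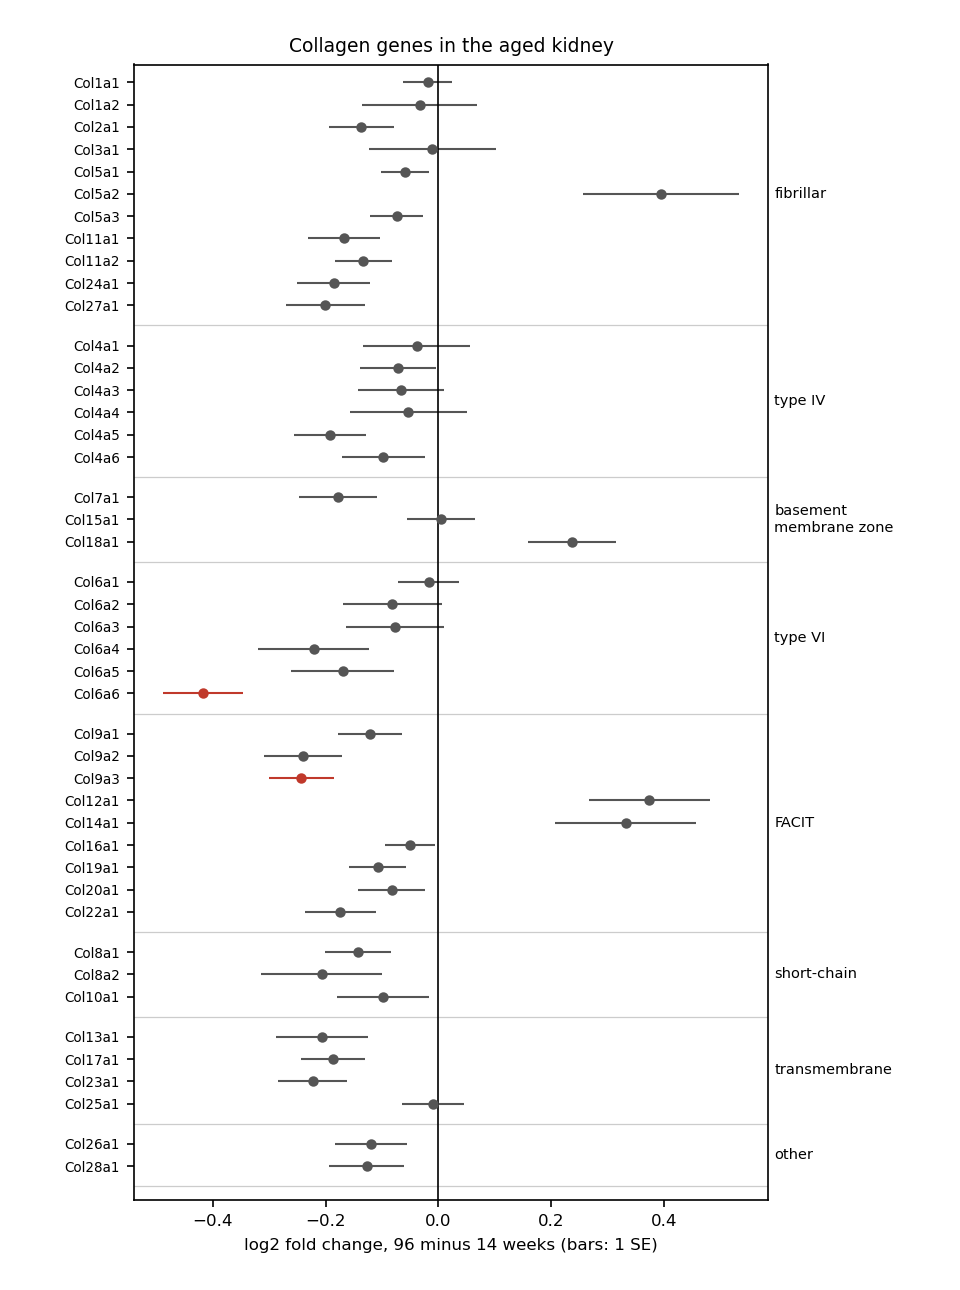
Difference in log2 expression (96 minus 14 weeks, horizontal axis) of the 44 collagens, grouped by class, with bars of 1 SE from limma. The 2 collagens that fell, Col6a6 (-0.42) and Col9a3 (-0.24), are red, and 39 of the 44 points lie left of the line at 0.

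The main chains of interstitial fibres had nearly the same mean level at both ages. Col1a1, which encodes the more abundant chain of type I collagen, read 7.13, 7.13, 7.14 and 7.18 at 14 weeks and 7.10, 7.13, 7.19, 7.12 and 7.10 at 96 weeks. The groups overlapped, and the difference of -0.02 had an interval of -0.11 to 0.08 (adjusted p = 0.78). A 1.5-fold change of the array values in either direction lay outside this interval. Without a background measure, a steady RNA level cannot be told from a probe set that responds little. Col1a2, which encodes the partner chain, read 6.95, 7.04, 7.03 and 7.14 at 14 weeks and 6.86, 6.86, 7.37, 7.03 and 6.91 at 96 weeks. Replicate 3 at 96 weeks was the highest of all 9 kidneys and replicates 1 and 2 of that age were the lowest. The difference was -0.03 (interval -0.26 to 0.19, adjusted p = 0.84).

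Col3a1 is the chain of type III collagen, which is laid down with type I in loose connective tissue. Its values lay close together in the young kidneys and further apart in the old ones. It read 6.74, 6.76, 6.76 and 6.77 at 14 weeks and 6.44, 6.61, 7.12, 6.80 and 6.76 at 96 weeks. The SD went from 0.010 to 0.25, while the means differed by -0.01 (interval -0.26 to 0.24, adjusted p = 0.95). Young replicates 2 and 3 and old replicate 5 held the same value, 6.76, so the young SD rests in part on repeated values. As for Col1a2, replicate 3 was the highest old kidney and replicate 1 the lowest. The signs of Col1a2 and Col3a1 rested on single kidneys: without replicate 1 at 96 weeks the differences were 0.00357 and 0.0655, and without replicate 2 they were 0.00337 and 0.0220.

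The bases before the start sites of Col1a2 and Col3a1 are shown because these are chains of the main interstitial fibres, and those of Col6a6 because its fall was the largest among collagens. Each line gives 250 bases ending just before the start (RefSeq, build GRCm38.p6), written from 5′ to 3′ in the direction of the gene, and capitals mark a CCAAT box, a GC box (GGGCGG, or CCGCCC on the other strand) or a TATA box (TATAAA).
Col1a2, chr6:4505368-4505617, plus strand: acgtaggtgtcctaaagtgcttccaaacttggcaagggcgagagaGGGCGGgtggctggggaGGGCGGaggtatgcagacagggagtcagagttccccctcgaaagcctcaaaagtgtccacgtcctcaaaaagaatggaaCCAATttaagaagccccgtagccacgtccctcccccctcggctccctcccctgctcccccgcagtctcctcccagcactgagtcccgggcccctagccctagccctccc
Col3a1, chr1:45311288-45311537, plus strand: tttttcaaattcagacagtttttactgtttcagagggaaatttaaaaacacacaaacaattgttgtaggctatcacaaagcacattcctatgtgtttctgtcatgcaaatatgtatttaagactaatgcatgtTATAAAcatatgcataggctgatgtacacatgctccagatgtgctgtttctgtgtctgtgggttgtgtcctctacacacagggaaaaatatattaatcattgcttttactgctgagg
Col6a6, chr9:105828086-105828335, minus strand: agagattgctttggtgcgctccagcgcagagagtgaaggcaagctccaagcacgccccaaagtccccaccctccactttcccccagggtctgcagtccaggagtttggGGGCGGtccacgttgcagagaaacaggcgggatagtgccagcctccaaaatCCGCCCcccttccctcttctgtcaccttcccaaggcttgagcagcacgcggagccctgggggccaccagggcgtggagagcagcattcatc
Col1a2 held the letters of 2 GC boxes (205 and 188 bases before the start) and of a CCAAT box (109 bases before). Col3a1 held the letters TATAAA (117 bases before), and Col6a6 those of 2 GC boxes (142 and 91 bases before). The table held such a window for 35 of 44 collagens. TATAAA was found on either strand in 5 of these (14.3%, against 12.4% of all 32851 windows), CCAAT in 12 (34.3%, against 33.8%) and GGGCGG in 21 (60.0%, against 32.7%). The letters of these motifs do not overlap. A match was made by letters alone, at any distance within the 250 bases, and is a description of the sequence and no test of binding.

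Among fibrillar collagens, Col5a2 was the only one of 11 with a higher mean at 96 weeks. It encodes a chain of type V collagen, which is built into type I fibrils and takes part in setting their width. Col5a2 read 5.97, 6.22, 6.01 and 5.83 at 14 weeks and 6.27, 6.50, 6.19, 6.86 and 6.19 at 96 weeks. Replicate 4 at 96 weeks was highest, and the 2 lowest old kidneys lay just under the highest young one. The difference of 0.39 (SE 0.14) was the largest of all collagens on the positive side, and did not pass (adjusted p = 0.11, exact permutation p = 0.048). The other chains of type V, Col5a1 and Col5a3, had differences of -0.06 and -0.07, and their adjusted p-values were 0.36 and 0.31.

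Col2a1, Col11a1, Col11a2, Col24a1 and Col27a1, of which 0 passed, had differences between -0.20 and -0.13. Col2a1, the main collagen of cartilage, had a difference of -0.14 (SE 0.057, adjusted p = 0.15), and its copolymerising chains Col11a1 and Col11a2 had -0.17 (SE 0.064) and -0.13 (SE 0.050), both with an adjusted p of 0.13. The late-described fibrillar chains Col24a1 and Col27a1 had -0.19 (SE 0.065) and -0.20 (SE 0.070), both with an adjusted p of 0.10. For Col11a1 and Col24a1 every old kidney lay below every young one (5.72 to 5.98 against 6.01 to 6.13, and 5.60 to 5.87 against 5.91 to 6.05). These 5 genes were the fibrillar collagens with an unadjusted p under 0.05 on the lower side. Fibrillar collagens as a group had a median of -0.07, against -0.03 over all genes. Without replicate 3 at 96 weeks it was -0.12, and without replicates 3 and 4 together -0.15.

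Type IV collagens, of which 0 of 6 passed, were all below 0, with a median of -0.07 against -0.03 over all genes. This median was -0.11 without replicate 2 and -0.04 without replicate 4 at 96 weeks, and -0.12 after repeated quantile normalization. Col4a1 read 7.09, 7.22, 7.09 and 7.08 at 14 weeks and 6.81, 7.09, 7.37, 7.09 and 7.05 at 96 weeks. Its partner Col4a2 read 6.89, 6.85, 7.03 and 7.01 at 14 weeks and 6.78, 7.00, 6.90, 6.74 and 6.93 at 96 weeks. The groups overlapped for both. Differences were -0.04 (interval -0.25 to 0.17, adjusted p = 0.81) and -0.07 (interval -0.22 to 0.08, adjusted p = 0.49). Col4a1 and Col4a2 lie head to head on mouse chromosome 8, and their RefSeq transcripts share the 22 bases at their starts. Replicate 3 was the highest old kidney for Col4a1 (7.37) and lay below replicates 2 and 5 for Col4a2 (6.90 against 7.00 and 6.93). For Col4a1 the same value, 7.09, stood on 4 arrays, among them old replicates 2 and 4, so its order is known in part only. A difference in order between the genes was not tested.

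Chains of the glomerular filter gave a like picture. Col4a3 read 7.71, 7.71, 7.73 and 7.92 at 14 weeks and 7.61, 7.92, 7.68, 7.60 and 7.71 at 96 weeks. Col4a4 read 7.60, 7.52, 7.63 and 7.55 at 14 weeks and 7.55, 7.86, 7.28, 7.36 and 7.55 at 96 weeks. Replicate 2 was the highest old kidney for both, and it was also the old kidney with the highest summed podocyte markers (10.96, with 10.54 to 10.80 in the other old kidneys). This kidney was also the highest for summed tubule markers (15.13) and the single highest old one in 22.7% of all genes, whereas Col4a5 was highest in replicate 3. Differences were -0.07 (adjusted p = 0.58) for Col4a3 and -0.05 (adjusted p = 0.75) for Col4a4, and that of Col4a4 turned to 0.00619 without replicate 3 at 96 weeks. That of Col4a1 turned to 0.0294 without replicate 1 at 96 weeks.

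Col4a5, the third chain of that network, had the lowest difference of this class. It read 6.80, 6.94, 6.70 and 6.87 at 14 weeks and 6.59, 6.68, 6.70, 6.51 and 6.69 at 96 weeks. The 2 ages met at a single value, 6.70, held by replicate 3 of both ages. The difference of -0.19 (interval -0.33 to -0.05) did not pass over all genes (adjusted p = 0.093, exact permutation p = 0.016), nor did it in any of 19 alternative settings (adjusted p from 0.074 to 0.19). Col4a6, whose start lies 1342 bases from that of Col4a5 on the X chromosome in the other direction, was a dim gene here (5.30 to 5.69 at 14 weeks, 5.32 to 5.41 at 96 weeks, difference -0.10, adjusted p = 0.38). Podocyte markers (7 of 8 measured) had summed levels of 10.48 to 10.63 at 14 weeks and 10.54 to 10.96 at 96 weeks. Among them Cdkn1c rose (0.57) and Wt1 fell (-0.37), both named after their values were seen. The part of podocyte number or state in the type IV values was not tested.

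**Figure D2:**
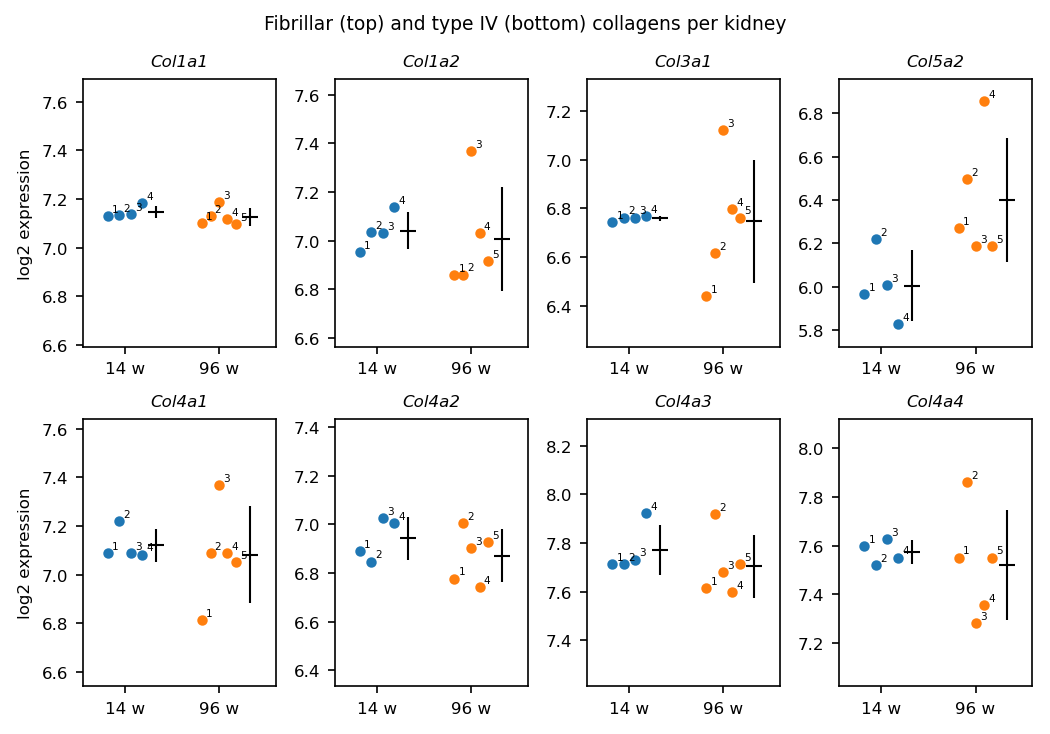
Log2 expression of 4 fibrillar (top) and 4 type IV collagens (bottom) in each kidney, with 4 mice at 14 weeks (blue) and 5 mice at 96 weeks (orange). Numbers are replicates, and bars show the mean with 1 SD. All panels span the same number of log2 units except that of Col5a2, which spans more. The narrow young groups of Col1a1 and Col3a1 and the high replicate 3 of the old group can thus be compared by eye.

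Other collagens of the basement membrane zone pointed in both directions. Col18a1, the source of endostatin and a heparan sulphate carrying component of vascular and epithelial basement membranes, read 6.83, 6.89, 6.84 and 6.75 at 14 weeks and 6.91, 7.20, 7.25, 6.99 and 6.97 at 96 weeks. Every old kidney lay above every young one, and the difference was 0.24 (SE 0.078, adjusted p = 0.091). Col7a1, the anchoring fibril collagen of skin, lay lower in every old kidney (6.38 to 6.62 against 6.63 to 6.85), with a difference of -0.18 (SE 0.069, adjusted p = 0.13). Col15a1, a relative of Col18a1, had a difference of 0.00 and the same value, 6.58, on 6 of 9 arrays. Adding these 3 genes to type IV left the median of the class at -0.07.

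Col6a6 had the largest fall of all collagens. Type VI collagen forms beaded microfilaments next to cells, and Col6a6 encodes one of the long chains that can take the place of the chain from Col6a3. Col6a6 read 7.24, 7.21, 7.17 and 7.06 at 14 weeks and 6.58, 6.91, 6.79, 6.78 and 6.70 at 96 weeks. Every old kidney lay below every young one. The difference was -0.42 (SE 0.070, interval -0.57 to -0.26), 1.34-fold lower, with an adjusted p of 0.011 and an exact permutation p of 0.0079, the smallest that 4 against 5 arrays can give. The second probe set of Col6a6 gave a smaller difference, from a mean of 5.61 to 5.43 (-0.18, adjusted p = 0.18), so the call rests on the brighter probe set. It was kept in 17 of 19 alternative settings.

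The other type VI collagens, all below 0, did not pass. The 3 classical chains, which form the common type VI molecule, had differences of -0.02 for Col6a1, -0.08 for Col6a2 and -0.08 for Col6a3. Col6a4, another long chain, had -0.22 (SE 0.099, adjusted p = 0.17), with overlapping groups and its lowest value in replicate 4 at 96 weeks (5.20). Col6a5 had -0.17 by its brighter probe set and 0.20 by its second one, with adjusted p-values of 0.24 and 0.25, so its sign depended on the probe set. The median over the 6 genes was -0.13.

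Fibril-associated collagens, which sit on the surface of fibrils and do not form fibrils themselves, held both the second collagen that fell and 2 of the 4 with an unadjusted p under 0.05 on the higher side. Col9a3 encodes a chain of type IX collagen, known from the surface of cartilage fibrils. It read 6.60, 6.70, 6.73 and 6.66 at 14 weeks and 6.31, 6.50, 6.53, 6.42 and 6.40 at 96 weeks. The groups did not overlap, and Col9a3 fell by 0.24 (SE 0.058, 1.18-fold, adjusted p = 0.036, exact permutation p = 0.0079). This call was kept in 9 of 19 alternative settings, with adjusted p-values from 0.025 to 0.086. It was lost without any 1 of the 14 week old kidneys (adjusted p of 0.053, 0.079, 0.086 and 0.082 without replicates 1, 2, 3 and 4) and without replicate 1 (0.062), 4 (0.060) or 5 (0.069) at 96 weeks.

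The partner chain Col9a2 had nearly the same difference, -0.24 (SE 0.069), and just missed the threshold (adjusted p = 0.064). Col9a2 read 7.19, 7.23, 7.22 and 7.06 at 14 weeks and 6.87, 6.89, 7.06, 6.80 and 7.06 at 96 weeks. Replicates 3 and 5 at 96 weeks had the value of the lowest young kidney. Col9a1, the last chain of type IX, had -0.12 (SE 0.057, adjusted p = 0.19). Col22a1, found at tissue junctions such as that of muscle and tendon, had -0.17 (SE 0.063, adjusted p = 0.11), and Col16a1, Col19a1 and Col20a1 lay between -0.11 and -0.05.

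Col12a1 and Col14a1, closely related collagens that bind type I fibrils in dense connective tissue, were higher at 96 weeks without passing. Col12a1 read 6.67, 6.76, 6.45 and 6.51 at 14 weeks and 6.77, 6.89, 7.15, 7.23 and 6.81 at 96 weeks. The groups did not overlap, though the gap was narrow (6.76 against 6.77). The difference was 0.37 (SE 0.11, interval 0.13 to 0.61, adjusted p = 0.064, exact permutation p = 0.016), with adjusted p-values of 0.050 to 0.15 over 19 alternative settings, 0 of which passed. Col14a1 read 7.53, 7.82, 7.93 and 7.86 at 14 weeks and 7.77, 8.04, 8.43, 8.16 and 8.18 at 96 weeks, and only replicate 1 of the old kidneys lay within the young range. Its difference was 0.33 (SE 0.13, adjusted p = 0.12). Replicates 3 and 4, the highest old kidneys for Col12a1, were also the highest for summed macrophage markers (11.79 and 11.92, with 10.72 to 11.24 in the other old kidneys and 9.97 to 10.13 at 14 weeks). Csf1r alone of that list was lowest in replicates 3 and 4 among the old kidneys (8.33 and 8.50, with 8.61 to 8.78 in the others). The part of macrophages in the Col12a1 values was not tested. Without replicates 3 and 4 at 96 weeks the difference of Col12a1 was 0.23 (adjusted p = 0.13).

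**Figure D3:**
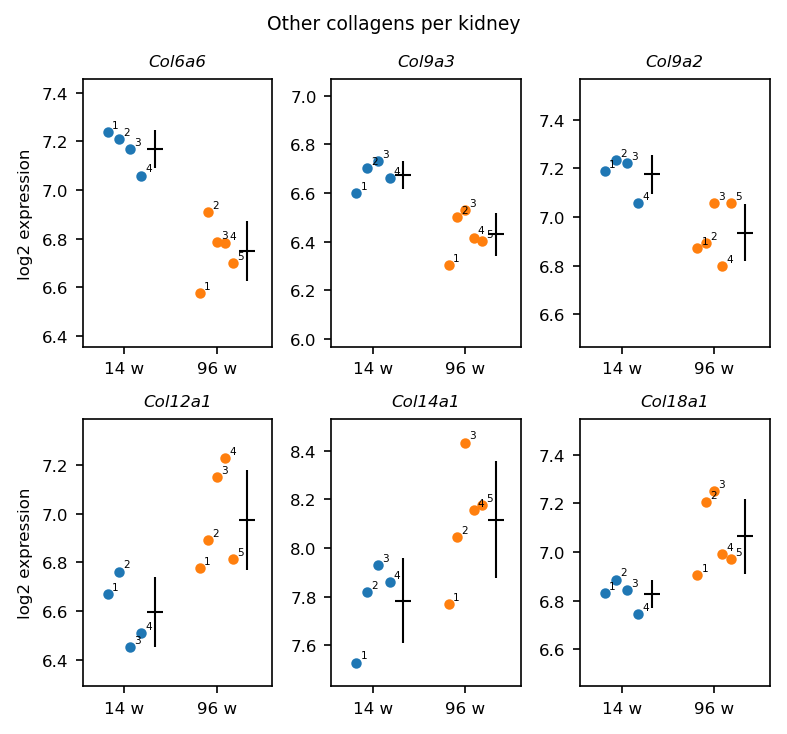
Log2 expression in each kidney of 3 collagens that were lower at 96 weeks (top: Col6a6, Col9a3, Col9a2) and 3 that were higher (bottom: Col12a1, Col14a1, Col18a1), with replicate numbers and the mean with 1 SD. Col6a6 and Col9a3 passed the test and show no overlap of ages, while Col9a2 and Col14a1 do overlap.

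Transmembrane collagens, which are anchored in the cell surface and shed from it, had the lowest median of all classes, -0.20 over 4 genes. Col23a1 had -0.22 (SE 0.061, adjusted p = 0.056) and Col17a1, a hemidesmosome protein that ties epithelial cells to the basement membrane, had -0.19 (SE 0.057, adjusted p = 0.074). Every old kidney lay below every young one for both (6.29 to 6.47 against 6.49 to 6.72 for Col23a1, 6.30 to 6.47 against 6.50 to 6.68 for Col17a1). Col13a1 had -0.21 (SE 0.082, adjusted p = 0.14), with 3 of 5 old kidneys below the young range. Col25a1, mainly a neuronal collagen, had -0.01. Of the short-chain collagens, Col8a1, a network collagen of vessel walls, had -0.14 (SE 0.059, adjusted p = 0.15), Col8a2 had -0.21 (adjusted p = 0.23) and Col10a1, a marker of hypertrophic cartilage, had -0.10. The remaining genes were Col26a1 (-0.12) and Col28a1 (-0.13, adjusted p = 0.23), and Col28a1 was the dimmest of all collagens.

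The spread within an age was read beside that of all genes. The SD was larger at 96 weeks in 30 of 44 collagens (68.2%), close to the 58.9% of all genes. Its median went from 0.078 at 14 weeks to 0.10 at 96 weeks in collagens and from 0.095 to 0.11 over all genes. Replicate 3 was the single highest old kidney in 20 of 44 collagens (45.5%), among them 6 of 11 fibrillar and 3 of 6 type IV genes, against 16.3% of all genes. Replicate 1 was the single lowest in 17 of 44 (38.6%), against 18.9% of all genes. These shares are descriptions, since collagens of a kidney are not independent of each other. Summed plasma and B cell markers were highest in replicate 3 (11.68, with 10.30 to 11.31 in the other old kidneys), but Cd79a, Cd79b and Mzb1, 3 of the 5 members, were highest in replicate 4, as was the mean of the list with each gene centred on its own mean (1.73, against 1.34 in replicate 3). Summed fibroblast and pericyte markers, of which 0 of 11 passed, were highest in replicate 4 (11.35; 11.11 to 11.35 at 96 weeks and 11.07 to 11.24 at 14 weeks). Of the other cell types, endothelial, adipocyte and urothelial lists had 0 members that passed, with summed levels of 11.93 to 12.33, 9.95 to 10.41 and 9.22 to 9.30 at 96 weeks, and 12.11 to 12.26, 9.80 to 10.59 and 9.13 to 9.24 at 14 weeks. Csf1r (0.45) and Lyz2 (2.54) rose among 8 macrophage markers, and Jchain (5.02) and Igha (3.06) among 5 measured plasma and B cell markers, all named after their values were seen. The part of these cell types in the spread of the collagens was not tested.

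Equal values recurred between arrays. The same value stood on at least 3 arrays for 19 of 44 collagens (43.2%), against 33.3% of all genes. Col15a1 had one value, 6.58, on 6 arrays, Col10a1 had one, 6.44, on 5, and Col2a1, Col4a1 and Col25a1 had one on 4 arrays.

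**Figure D4:**
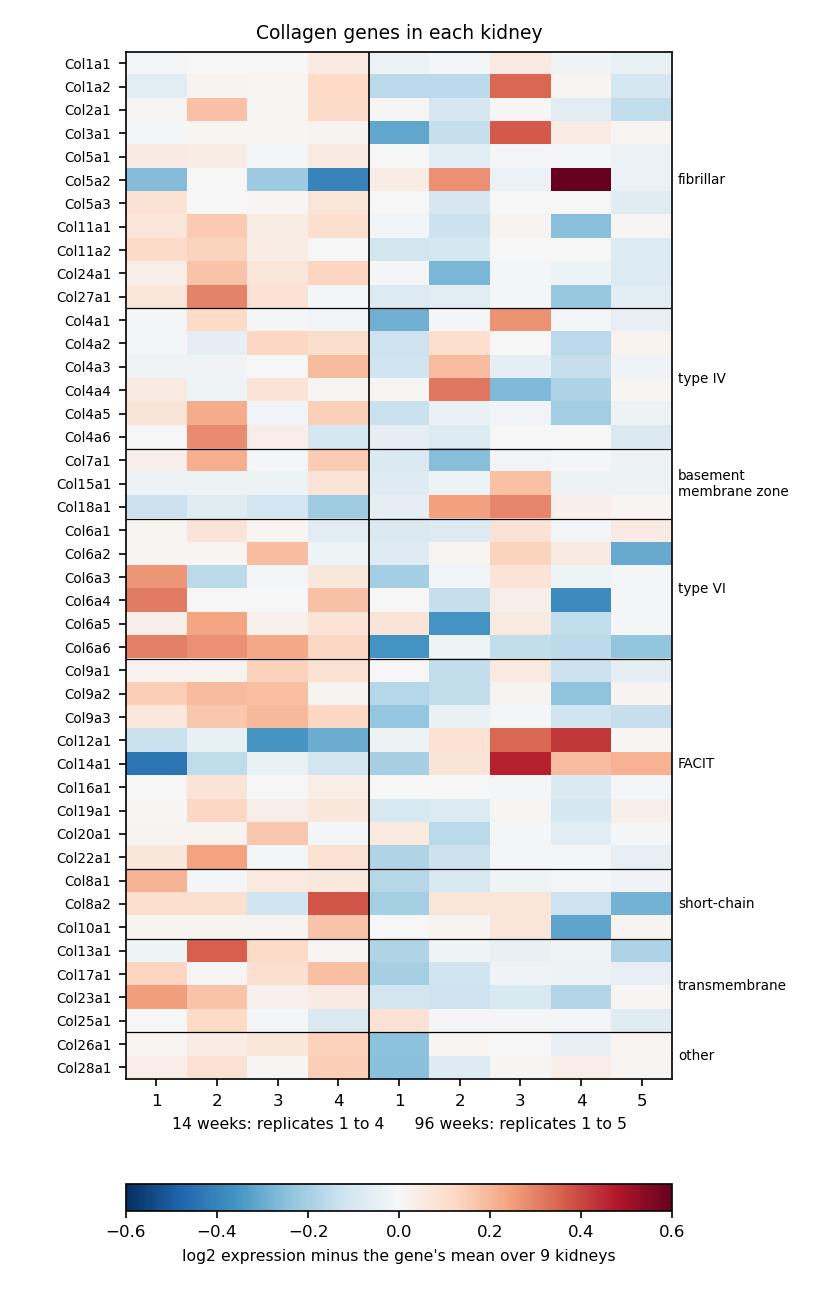
Log2 expression of each collagen (vertical) in each of the 9 kidneys (horizontal) minus the mean of that gene over all kidneys, with classes parted by lines. Replicate 3 at 96 weeks holds the highest old value in 20 of 44 genes, and Col5a2, Col12a1, Col14a1 and Col18a1 have higher means in the old columns.

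Genes that make, trim, crosslink, break down or bind collagen were read for comparison. Of 61 such genes 57 were measured, 5 rose and 2 fell, against 4.31% and 2.4% of all genes. Of the 57, 40 lay above 0, with a median of 0.11. Over all genes 56.6% lay below 0, with a median of -0.03. Bright genes leaned higher, with medians over all genes of 0.07, 0.06 and 0.03 in deciles 8, 9 and 10 of mean level. After cyclic loess 41 of the 57 lay above 0, with a median of 0.11. Over all genes 51.4% then lay below 0, with a median of -0.0044. A comparison with genes of like brightness was not made for these lists. In the endoplasmic reticulum, where 19 were measured, Ppib and Crtap rose and P3h2 fell. Ppib (cyclophilin B) and Crtap are partners in a complex that hydroxylates and folds procollagen, and brittle bone disease follows from their loss. Ppib read 9.36, 9.17, 9.40 and 9.13 at 14 weeks and 9.83, 9.61, 9.74, 9.72 and 9.69 at 96 weeks. The groups did not overlap, and Ppib rose by 0.45 (SE 0.071, adjusted p = 0.0091), a call kept in all 19 alternative settings. Crtap rose by 0.30 (SE 0.070, adjusted p = 0.032), without overlap (7.76 to 8.00 against 8.10 to 8.36). P3h1, the third member of the complex, had a difference of 0.03.

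P3h2, a prolyl 3-hydroxylase that acts on type IV collagen, was the collagen-modifying enzyme that fell. It read 12.47, 12.48, 12.40 and 12.46 at 14 weeks and 12.15, 12.21, 11.88, 11.66 and 11.97 at 96 weeks. Every old kidney lay below the narrow young group, and P3h2 fell by 0.48 (SE 0.10, adjusted p = 0.024). Without any 1 of the 14 week old kidneys its adjusted p was 0.060, 0.058, 0.054 and 0.068 (replicates 1 to 4). With the methods' t-test it was 0.082, and the call was kept in 13 of 19 alternative settings. The hydroxylases of the helix P4ha1 (0.22) and P4ha2 (0.26), and the collagen chaperone Serpinh1 (0.11), did not pass.

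Outside the cell, the enhancers of C-terminal trimming of procollagen rose, while a proteinase that cuts the N-terminal end fell. Pcolce read 8.35, 8.59, 8.65 and 8.67 at 14 weeks and 8.91, 8.96, 9.12, 9.04 and 8.95 at 96 weeks, and rose by 0.43 (SE 0.075, adjusted p = 0.012), in all 19 alternative settings as well. Pcolce2 read 7.86, 7.61, 7.69 and 7.61 at 14 weeks and 8.68, 8.76, 7.88, 8.39 and 8.77 at 96 weeks. Replicate 3 lay close to the young kidneys, and Pcolce2 rose by 0.80 (SE 0.17, 1.74-fold, adjusted p = 0.024). Adamts3 fell by 0.38 (SE 0.10, adjusted p = 0.0496), with overlap of 1 old kidney. That call was kept in 4 of 19 alternative settings, and the second probe set of the gene gave -0.17 (adjusted p = 0.35). Bmp1, the C-terminal proteinase itself, had a difference of -0.01. The fibril-binding proteoglycans Dcn (0.41) and Lum (0.48) and the collagen-binding Sparc (0.45) did not pass either.

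Among 6 crosslinking genes 0 passed. Loxl4, a lysyl oxidase, had a large and uneven difference of 0.95 (SE 0.31, adjusted p = 0.088), with old kidneys from 6.48 to 7.95 and young ones from 5.77 to 6.73. Its second brightest probe set gave a smaller difference that did pass (0.52, SE 0.12, adjusted p = 0.034), so the call and the size depended on the probe set. Pxdn, the peroxidasin that crosslinks type IV collagen, had 0.20 (SE 0.11, adjusted p = 0.27). Of 11 genes of breakdown and uptake, Timp2, an inhibitor of metalloproteinases, rose by 0.38 (SE 0.080, adjusted p = 0.023), with 7.95 to 8.29 in old and 7.59 to 7.85 in young kidneys. Mmp14, a membrane-bound collagenase, had 0.24 (SE 0.12, adjusted p = 0.22) with its highest value, 6.97, in replicate 3 at 96 weeks. Of 9 collagen receptors 0 passed, and the discoidin domain receptors Ddr1 and Ddr2, kinases that sense collagen, had 0.24 (adjusted p = 0.064) and 0.19 (adjusted p = 0.12). Ddr1 passed in 4 of 19 alternative settings, with a difference of 0.29 (adjusted p = 0.019) without replicate 4 at 96 weeks, 0.27 (adjusted p = 0.032) without replicates 3 and 4 together, and adjusted p-values of 0.028 with array weights and 0.049 with a filter on dim genes.

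Of these calls, those of Crtap, Pcolce2 and Timp2 were lost when single kidneys were left out. Crtap had adjusted p-values of 0.075, 0.075 and 0.055 without replicates 1, 3 and 4 at 14 weeks and 0.066, 0.060 and 0.055 without replicates 1, 2 and 5 at 96 weeks. Pcolce2 had 0.061, 0.059 and 0.073 without replicates 2, 3 and 4 at 14 weeks and 0.055 and 0.053 without replicates 1 and 2 at 96 weeks. Timp2 had 0.052, 0.063 and 0.072 without replicates 1, 3 and 4 at 14 weeks, and 0.053 without replicates 3 and 4 at 96 weeks together. With the methods' t-test the adjusted p-values of Crtap, Pcolce2 and Timp2 were 0.079, 0.089 and 0.074. Crtap and Timp2 also lost their calls after repeated quantile normalization (0.097 and 0.073) and cyclic loess (0.058 for both). Of 19 alternative settings, Crtap passed in 9, Pcolce2 in 12 and Timp2 in 11.

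**Figure D5:**
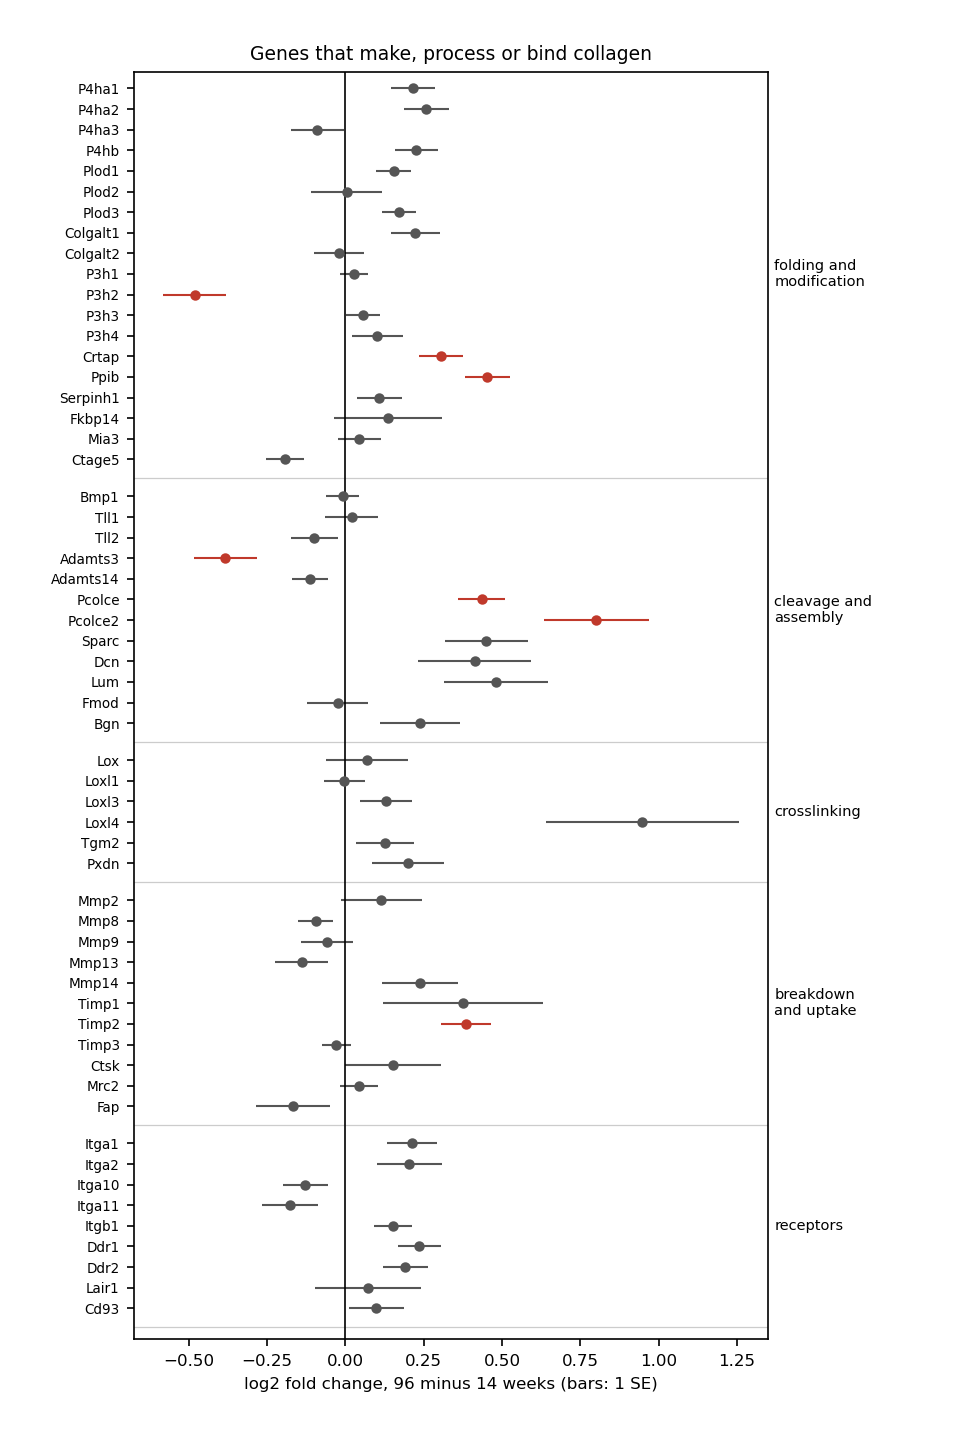
Difference in log2 expression (96 minus 14 weeks, horizontal axis) of 57 genes of collagen folding, trimming, crosslinking, breakdown and binding, with bars of 1 SE from limma. Genes that passed are red: Ppib, Crtap, Pcolce, Pcolce2 and Timp2 lie right of 0, and P3h2 and Adamts3 lie left of it.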

How the data were processed

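Kidney RNA of 9 mice, 1 array each, was labelled and hybridized to Affymetrix Mouse Gene ST arrays. Scans were turned by the authors into log2 values for 35557 probe sets, using the RMA method with quantile scaling (Affymetrix Power Tools 1.12.0). The annotation gave 1 symbol for 21789 of these, several for 1621 and none for 12147; only the first kind was used, with the brightest probe set for the 999 genes that had more than 1. RMA is known to compress fold changes, most of all for dim probe sets.

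Ages were compared with limma 3.58.1 (lmFit, eBayes) in R 4.3.3 without covariates and with Benjamini-Hochberg adjustment over 19938 genes. The code was tested on simulated data. Exact permutation tests over all 126 splits of the arrays were two-sided. Summed marker levels are the log2 of summed linear values. Promoter windows came from RefSeq, and figures were drawn with matplotlib 3.10.9 in Python 3.11.15.

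The members, classes and lists were chosen with earlier results of these data known. Named were every fibrillar and type IV collagen, other collagens with an unadjusted p under 0.05, the brightest and dimmest of the rest, and pathway genes that passed or had the 2 smallest p in their list. Other members were named to account for the family. The alternatives were the methods' t-test, a trend and robust prior, array weights, a filter at the 30th percentile, repeated quantile normalization, cyclic loess, other probe sets, the replicate block and leaving out arrays.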

Additional observations from a re-analysis of the deposited data

Results flagged for a closer look

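Of 112 groups of arrays (44 collagens and 12 pathway genes at both ages), 13 held a kidney that lay apart from the others of its age by Dixon's test. Chance gives about 1 in 20 groups where values do not repeat. Here values repeat between arrays, and no rate over all genes was taken, so the 13 are not read as an excess. The young kidney in replicate 4 was the one apart in 4 of them. It was highest for Col1a1 (7.18, next 7.14), Col4a3 (7.92, next 7.73), Col10a1 (6.60, next 6.44) and Col15a1 (6.69, next 6.58). Other young kidneys apart were replicate 2 for Col4a1 (7.22, next 7.09), replicate 3 for Col20a1 (6.48, next 6.33) and for Col5a1 (6.61, below the next at 6.66), and replicate 1 for Pxdn (6.36, below the next at 6.57).

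At 96 weeks, replicate 3 was highest for Col15a1 (6.79, next 6.58). Replicate 4 was lowest for Col10a1 (6.11, next 6.42) and Col16a1 (6.40, next 6.47), replicate 2 was lowest for Col24a1 (5.60, next 5.79), and replicate 1 was lowest for Col26a1 (6.47, next 6.67). For Col10a1 and Col15a1 the same value stood on 3 of the 4 young arrays, so any other value on the remaining array would have been flagged.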

How the results depend on the processing

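The 0 collagens that rose and the 0 that reached 1.5-fold in either direction stayed at 0 in every alternative. The 2 collagens that fell became 4 with the filter at the 30th percentile, 3 with repeated quantile normalization and 1 with the methods' t-test, cyclic loess or second probe sets, and 1 to 2 without each replicate in turn. Pathway genes that rose (5) became 7 with array weights or the filter, 6 with second probe sets, 2 with the t-test, 3 with repeated quantile normalization or cyclic loess, and 2 to 6 without each replicate. Pathway genes that fell (2) became 3 with repeated quantile normalization, 0 with the t-test, 1 with array weights, the mean of probe sets, second probe sets, or without replicates 3 and 4 at 96 weeks together, and 0 to 2 without each replicate. The fibrillar median was -0.15 without replicates 3 and 4 together and -0.12 to -0.06 without each replicate, and the type IV median was -0.12 after repeated quantile normalization and -0.11 to -0.04 without each replicate. Without each replicate in turn, Col1a2 ranged from -0.12 to 0.00357, Col3a1 from -0.10 to 0.0655, Col4a1 from -0.11 to 0.0294 and Col4a4 from -0.14 to 0.00619, and Col4a4 was 0.0806 without replicates 3 and 4 together. The cause was not tested. Collagens below 0 numbered 35 to 40 over all settings, and those lower at an unadjusted p under 0.05 numbered 9 to 19.

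Replicate numbers did not pair the samples: same-numbered kidneys correlated at 0.076, 0.021, -0.037 and 0.012 in their deviations from the age means. With the replicate number as a block, 0 collagens and 0 pathway genes fell and 2 pathway genes rose.

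The limits are those of 4 against 5 arrays, of dim probe sets without a background measure, and of values that repeat between arrays. The interval of Col1a1 excluded a 1.5-fold change of its array values, but how far its probe set responds to RNA is not known. Smaller changes, changes in a single cell type and changes in protein or matrix amount are not covered by these arrays.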
